A study of Mus musculus with 9 samples.

Results

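The CCN family is a small group of secreted matricellular proteins, which sit in the extracellular matrix and change how cells respond to it rather than building it. Its members in the RNA-seq table of this mouse study of intracerebral hemorrhage (ICH) were Wisp1, Wisp2, Ctgf, Cyr61 and Nov, the older names of Ccn4, Ccn5, Ccn2, Ccn1 and Ccn3. They were picked by name, as 5 of the 38621 genes in the table. Wisp1 was the starting point because its level was already known to be higher in ICH than in sham and lower in feb than in ICH. Its own differences between groups are therefore given as a description with no test, and the question asked of the other members was whether they shared its pattern. The sixth gene of the family in the table, Wisp3 (Ccn6), was not chosen as a member and is given for completeness.

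All mice were male C57BL/6, and the tissue was brain, with the region, the age and the time after injury not given in the sources used here. The sham group (n = 3) received saline by the methods of the study, while its label reads untreated. The ICH group (n = 3) received 30 µl of autologous whole blood by stereotaxic injection. The feb group (n = 3) received the same injection after febuxostat, a xanthine oxidase inhibitor, dosed orally on 5 days at 50 mg/kg a day. Febuxostat was given only together with ICH, so a drug effect without hemorrhage was not analysed here.

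CCN proteins are built from a secretion signal followed by modules that resemble parts of insulin-like growth factor binding proteins, von Willebrand factor and thrombospondin, and most members end in a cysteine-rich module. They bind integrins, heparan sulfate proteoglycans and growth factors. Ctgf and Cyr61 are classic target genes of the YAP/TAZ and TEAD transcription factors, which respond to cell shape and matrix stiffness, and are also induced by TGF-beta or serum. Wisp1 and Wisp2 take their names from Wnt-1-induced signaling, and Nov was found as a gene overexpressed in a viral kidney tumor. In brain, neurons of some cortical layers are known to express Ctgf or Nov.

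The table gave levels as RPKM, read counts divided by exon length and by the mapped reads of the library, so that levels can be compared between genes and between mice. Depth was 23065757 to 29538009 reads per mouse. All values of all mice were whole multiples of 1 read to within 0.05 of a read, so the reads behind each level could be read back. Markers of astrocytes, oligodendrocytes, microglia and endothelium were above 0 in every mouse, as in brain. The choroid plexus markers summed to 365 to 1035 RPKM in sham, 458 to 967 in ICH and 30.6 to 88.4 in feb, and the cortical excitatory neuron markers to 43.6 to 65.6, 103 to 172 and 81.0 to 98.4, so marker levels of several cell types differed between the groups. In bulk tissue, fewer cells of a type and less RNA per cell cannot be told apart.

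By the gene positions deposited with the RPKM values, Nov (chr15:54745702-54754039, plus strand) and Wisp1 (chr15:66891320-66923201, plus strand) lay on the same chromosome. Wisp2 was at chr2:163820861-163833146 (plus strand), Ctgf at chr10:24595442-24598683 (plus strand) and Cyr61 at chr3:145646976-145649981 (minus strand). By the GENCODE M21 annotation of GRCm38, the longest coding sequence was 753 bases in Wisp2, which lacks the carboxy-terminal module, and 1044 to 1137 bases in the other members. Aligned coding sequences of the family, Wisp3 included, were 60.8% to 67.5% identical, and no run of 31 bases was shared between any pair, so coding reads of the members could be told apart over such a run. Only Ctgf shared exon bases with another gene among the members. The antisense gene Gm15270 covered 665 of its bases, 23.2% of its exon length.

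Of the members, Cyr61 was the 1 with an entry in the RefSeq promoter table of GRCm38.p6. The 250 bases before its start are shown because they hold short motifs of the pathways examined here, a TEAD core and the core of a cAMP response element. The window is chr3:145649986-145650235, printed 5′ to 3′ on the minus strand, with the motifs in capitals.
Cyr61: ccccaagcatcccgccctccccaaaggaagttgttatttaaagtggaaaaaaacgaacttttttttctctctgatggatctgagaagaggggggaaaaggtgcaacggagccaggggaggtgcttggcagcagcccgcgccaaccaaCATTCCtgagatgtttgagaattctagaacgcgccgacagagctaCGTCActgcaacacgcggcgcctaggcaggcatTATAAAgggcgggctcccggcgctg
Both strands were searched. The TEAD core GGAATG occurred as CATTCC 103 bases upstream of the start, the cAMP response core TGACG as CGTCA 58 bases upstream, and the TATA box TATAAA 25 bases upstream. None of the matches overlapped. Of all 32851 promoters of that length, 12.6% held the TEAD core, 17.8% the cAMP response core and 12.4% the TATA box, so each motif alone was common, and a match is a description of the letters and not a site.

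Wisp1, a secreted protein of the Wnt pathway linked to survival signaling, was at a low level in every mouse, with 7 to 64 reads. Sham mice 1, 2 and 3 had levels of 0.160, 0.0693 and 0.110 RPKM. The ICH mice, in the same order as used throughout, had 0.474, 0.400 and 0.270 RPKM and the feb mice 0.0479, 0.158 and 0.0550 RPKM. Every ICH mouse lay above every sham and every feb mouse, while the sham and feb mice overlapped. The mean level was 3.38 times the sham mean in ICH and 0.228 times the ICH mean in feb. On the log2(RPKM + 0.1) scale the difference was 1.17 ± 0.33 (SE) for ICH against sham, -1.39 ± 0.33 for feb against ICH and -0.21 ± 0.33 for feb against sham, n = 3 a group. Because the level was close to the added 0.1, the size depended on it, and was 0.31 and -0.34 in the first 2 comparisons when 1 was added in its place. These are the values by which Wisp1 was chosen. Among all genes tested, 4.43% had every ICH mouse above all other mice.

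Wisp2, a member that lacks the carboxy-terminal module and is known from smooth muscle and adipose precursor cells, was near the limit of detection. Its level was 0.0352, 0 and 0.0185 RPKM in sham, 0.0637, 0.375 and 0.0198 in ICH and 0.118, 0.0206 and 0.0451 in feb. Of its 35 reads, 19 (54.3%) came from ICH mouse 2, and the other mice had 0 to 6 each. The 0 reads of sham mouse 2 allow a level of up to 0.0597 RPKM, the worth of 3 reads there, while the 19 reads of ICH mouse 2 gave an exact 95% Poisson interval of 0.226 to 0.586 RPKM, which covers counting error only. Pooled over the mice and divided by depth, its reads were 8.35 times higher in ICH than in sham (exact 95% counting interval 2.52 to 43.4), and 2.20 times (0.373 to 15.1) without ICH mouse 2. Wisp2 reached 0.1 RPKM in 2 of 9 mice, under the 3 mice asked for, and was not tested. Feb over sham gave 3.36 (0.839 to 19.3) and feb over ICH 0.403 (0.164 to 0.904), or 1.52 (0.426 to 6.77) without ICH mouse 2. Without that mouse all of these counting intervals include 1.

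**Figure D1:**
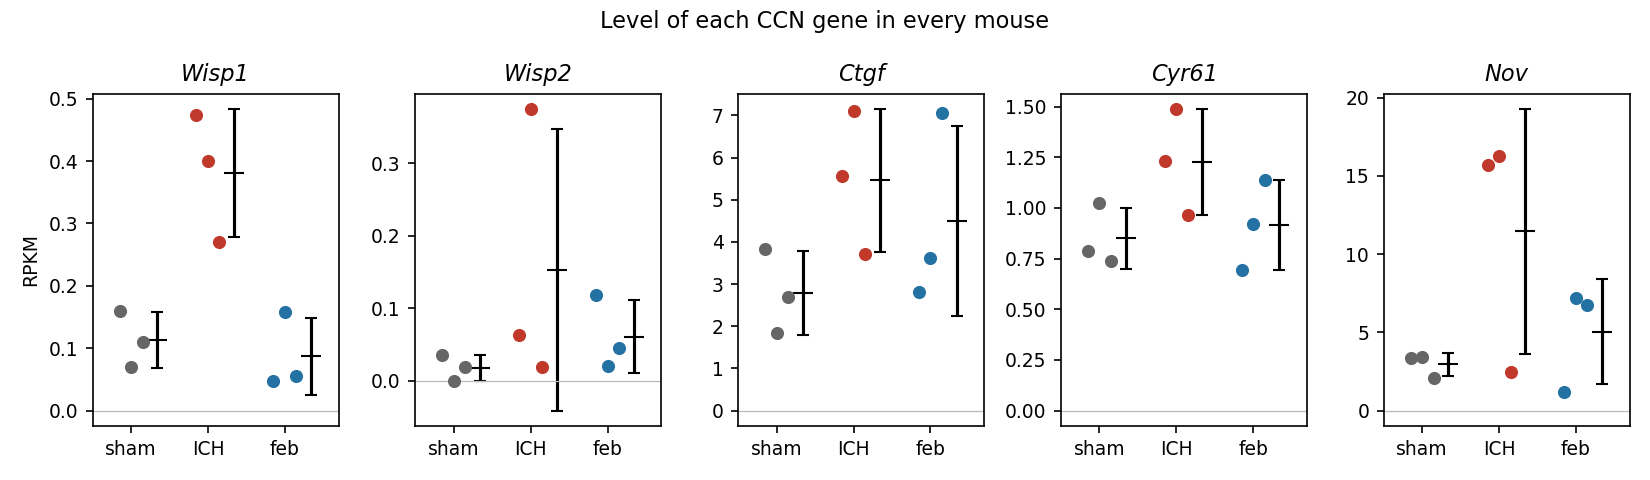
Level of each CCN gene in RPKM on a linear axis in the 3 sham, 3 ICH and 3 feb mice. Points are mice and the bars beside them the mean ± SD. Wisp1 alone has every ICH mouse above all others, Wisp2 has 1 high ICH mouse at 0.375 RPKM, and Nov has 2 ICH mice near 16 RPKM and 1 at 2.44.

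Ctgf, the connective tissue growth factor that promotes matrix production downstream of TGF-beta and YAP, was well covered, with 138 to 535 reads. Its level was 3.83, 1.85 and 2.7 RPKM in sham, 5.55, 7.11 and 3.71 in ICH and 2.81, 3.63 and 7.06 in feb. The lowest ICH mouse lay just under the highest sham mouse, and feb mouse 3 was nearly as high as ICH mouse 2, so the groups overlapped in each comparison. The log2 difference was 0.95 ± 0.39 (95% interval 0.07 to 1.84) for ICH against sham, with an unadjusted p of 0.0374 and an adjusted p of 0.390 over all genes tested by limma. It was -0.33 (-1.22 to 0.55) for feb against ICH, adjusted p = 0.770 by limma, and 0.62 (-0.26 to 1.5) for feb against sham, adjusted p = 0.665. The Ctgf difference was under 2-fold and thus not called. The antisense gene Gm15270 was at 3.73, 1.49 and 2.48 RPKM in sham, 3.50, 4.30 and 2.19 in ICH and 2.15, 3.30 and 4.52 in feb. It was highest in the same mice as Ctgf, ICH mouse 2 and feb mouse 3. The libraries were made with a stranded kit, but whether reads were counted by strand is not given in the sources used here, so the levels of the pair may share reads.

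Cyr61, the cysteine-rich angiogenic protein that serum and growth factors induce quickly, had 37 to 79 reads. Its level was 0.788, 1.02 and 0.740 RPKM in sham, 1.23, 1.49 and 0.965 in ICH and 0.692, 0.922 and 1.14 in feb. ICH mouse 3 lay below sham mouse 2 and feb mouse 3, so the groups overlapped, and relative to its level Cyr61 spread less over the 9 mice than any other member. The log2 difference was 0.48 (95% interval -0.06 to 1.01) for ICH against sham, adjusted p = 0.432 by limma. For feb against ICH it was -0.39 (-0.92 to 0.14), adjusted p = 0.560 by limma, and for feb against sham 0.09 (-0.45 to 0.62), adjusted p = 0.928. No direction was shown for Cyr61, since each interval includes 0.

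Nov, a growth-restraining member that also binds Notch1, had the largest SD of RPKM among the members. Its level was 3.34, 3.43 and 2.11 RPKM in sham, 15.7, 16.3 and 2.44 in ICH and 1.16, 7.21 and 6.74 in feb, from 88 to 1229 reads. ICH mice 1 and 2 stood above all other mice, but ICH mouse 3 fell within the sham range. The feb mice likewise split, with mouse 1 below every sham mouse and mice 2 and 3 above. The log2 difference was 1.54 ± 0.85 (95% interval -0.39 to 3.47) for ICH against sham, adjusted p = 0.461 by limma, and -1.13 (-3.06 to 0.80) for feb against ICH, adjusted p = 0.638. For feb against sham it was 0.41 (-1.52 to 2.34), adjusted p = 0.903 by limma. Without ICH mouse 3 the values became 2.43 and -2.02 in the first 2 comparisons and passed the criteria for a call, with unadjusted limma p of 0.00940 and 0.0221, so 1 mouse decided whether Nov was called.

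Counted together, 0 of the 3 tested members other than Wisp1 were called in ICH against sham, where a call needed an unadjusted limma p under 0.05 and a change of over 2-fold. Of all 29025 genes tested, 2.53% were called in that comparison, so a count of 0 of 3 is close to the background. At an unadjusted p under 0.05 alone, 1 of the 3 (Ctgf) was higher, against 7.88% of all genes. In feb against ICH, 0 of 3 were called, against 2.43% of all genes. There 0 of 3 had an unadjusted limma p under 0.05, against 11.1% of all genes in either direction (6.16% lower). In feb against sham 0 of 3 were called, against 2.2% of all genes. Again 0 of 3 had an unadjusted limma p under 0.05, against 8.54% of all genes in either direction (5.63% higher). With limma voom on the recovered reads 0 of 3 were called in each comparison. All 3 overlapped between the groups in every comparison, whereas 13.2% of all genes had every ICH mouse above every sham mouse 10.1% had every feb mouse below every ICH mouse and 7.78% had every feb mouse above every sham mouse.

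For ICH against sham the fitted differences of Ctgf, Cyr61 and Nov were 0.95, 0.48 and 1.54 beside the 1.17 of Wisp1, and for feb against ICH they were -0.33, -0.39 and -1.13 beside -1.39. Both comparisons share the ICH mice, so their signs are not independent, and the median over all genes tested was 0.08 and -0.01. With 1 mouse left out, the members called numbered at most 2 in ICH against sham, Ctgf at 1.20 without sham mouse 1, and Ctgf at 1.20 and Nov at 2.43 without ICH mouse 3. The Wisp1 pattern of separated groups was thus not found in another member, but for ICH against sham the intervals of Ctgf and Nov, and for feb against ICH that of Nov, were wide enough to hold a difference of its size. Wisp3, at 0.0270 to 0.259 RPKM from 1 to 9 reads, had a log2 difference of 0.55 (95% interval -0.34 to 1.43) for ICH against sham, adjusted p = 0.552 by limma, and it shares 34% of its exon bases with the antisense gene Tube1.

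**Figure D2:**
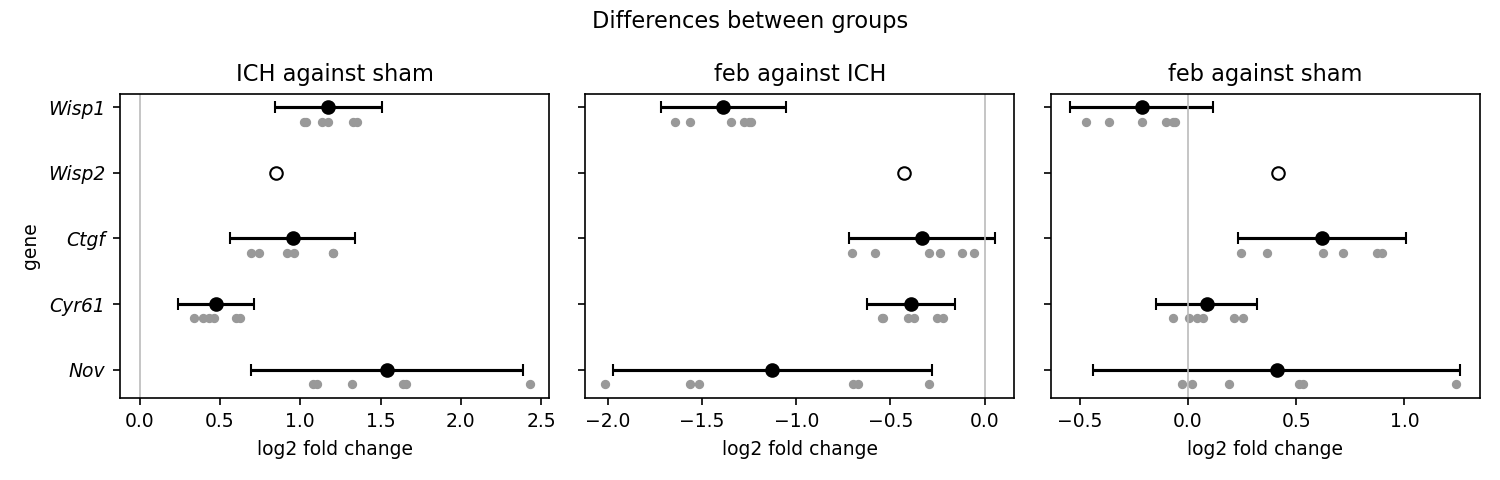
Log2 fold change of each member in the 3 comparisons, on the log2(RPKM + 0.1) scale. Black points are the fitted values with bars of ± 1 SE, grey points the values with 1 mouse left out in turn, and open circles the difference of group means for Wisp2, which was not tested. Nov moves most, from 1.54 to 2.43 for ICH against sham without ICH mouse 3.

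Levels per length differed widely between members in the same brain. The mean over 9 mice was 6.49 ± 5.75 RPKM (SD) for Nov, 4.25 ± 1.90 for Ctgf, 0.999 ± 0.257 for Cyr61, 0.194 ± 0.155 for Wisp1 and 0.0773 ± 0.117 for Wisp2. Nov and Ctgf could not be ordered, since Nov was the higher of the pair in 4 of 9 mice (mean log2 difference 0.23, exact sign-flip permutation p = 0.453, two-sided). The ratio of Nov to Ctgf ran from 0.412 in feb mouse 1 to 2.83 in ICH mouse 1. Ctgf was above Cyr61 in 9 of 9 mice, by 1.90 on the log2 scale, and Cyr61 above Wisp1 in 9 of 9, by 2.04. Both gave an adjusted exact permutation p of 0.00781 over the 4 neighboring pairs, from an unadjusted 0.00391, the smallest that 9 mice allow. Wisp1 was above Wisp2 in 8 of 9 mice, by 0.74, with an adjusted exact permutation p of 0.0260. Within a group of 3 no order could pass, as the smallest exact p is 0.25. The mean level of Wisp1 was above that of 11.7% of the genes tested, of Cyr61 39.1%, of Ctgf 67.3% and of Nov 75.3%.

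Across the 9 mice, Cyr61 and Nov varied together. Pearson r of their log2 levels was 0.885 and Spearman rho 0.867, with exact permutation p of 0.00195 and 0.00451, adjusted to 0.0117 and 0.0271 over the 6 pairs of the members other than Wisp1. The relation held with r of 0.760 when the 2 mice with the most extreme Cyr61 levels were dropped, 0.839 with the group means subtracted and 0.838 to 0.920 with 1 mouse left out. Ctgf gave r of 0.729 with Nov and 0.681 with Cyr61 (rho 0.650 and 0.667), neither of which passed the correction, with adjusted exact permutation p of 0.0823 and 0.0886 for r and 0.0998 for both rho. Of the 6 pairs, 3 had an unadjusted p under 0.05 for r and 1 an adjusted p under 0.05.

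Wisp1 itself, described with no test, gave r of 0.68 with Nov, 0.61 with Cyr61, 0.51 with Ctgf and 0.41 with Wisp2. Without the 2 mice farthest from its median these values were 0.10, 0.03, 0.07 and -0.43, so they rested on ICH mice 1 and 2. With the group means subtracted they were 0.63, 0.12, 0.36 and 0.07, leaving Nov as the member nearest to Wisp1 within the groups. The mice with the highest Wisp1, ICH mice 1 and 2, were also those with the highest Nov, and ICH mouse 3 was the lowest of its group for Wisp1, Ctgf, Cyr61 and Nov alike.

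The members were set against the summed levels of 14 marker lists of brain regions and cell types. Summed thalamus neuron markers, genes such as Tcf7l2 and Lhx9, were 168, 197 and 256 RPKM in sham, 100, 45.5 and 200 in ICH and 228, 235 and 102 in feb, with none of the 8 at 0 in any mouse. The mice with low thalamus sums, ICH mice 1 and 2 and feb mouse 3, were those with the highest Cyr61 and Ctgf. Cyr61 correlated with the sum at r of -0.875 (exact permutation p = 0.00121, adjusted to 0.0338 over 56 relations of members other than Wisp1 with 14 lists), and rho was -0.833 with an adjusted exact permutation p of 0.231. Without the 2 farthest mice r was -0.659, with the group means subtracted -0.795, and with 1 mouse left out -0.904 to -0.782. Ctgf and Nov gave r of -0.816 and -0.793 with adjusted exact permutation p of 0.0947 and 0.108, and rho of -0.800 and -0.700 with 0.238 and 0.303. Of the 56 relations, 12 had an unadjusted p under 0.05 for r and 2 an adjusted p under 0.05.

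In ICH against sham, 8 of 8 thalamus markers had values below 0, as did 38.9% of all genes. Their median log2 difference was -0.99. Of all genes, 1.07% were called lower in that comparison. Among the 8 markers 1 (Tcf7l2, a Wnt-pathway transcription factor that is also a thalamus marker) was called lower at -1.61, adjusted p = 0.382 by limma. That call was lost with the replicate block and without sham mouse 1, sham mouse 3, ICH mouse 1 or ICH mouse 2. In feb against ICH 8 of 8 were above 0 with a median of 0.75, while 52.2% of all genes were below 0. Of these 8, 0 were called and 0 had an unadjusted limma p under 0.05. Both comparisons share the ICH mice, so these sign counts are not independent. Of the cortical excitatory neuron markers, 7 of 10 were called higher in ICH against sham, as were 1.46% of all genes. Among the 7 was Slc17a7, the vesicular glutamate transporter of cortex, at 1.54, adjusted p = 0.277 by limma. Values above 0 were found for 8 of 10, and the lowest value of the list was -0.14. The calls of Emx1 and Neurod6 were lost in some settings. The study itself names some genes of this list, among them Tbr1 and Emx1, so the list is not independent of these samples. Their sum gave r of 0.736 with Ctgf, 0.799 with Cyr61 and 0.694 with Nov, with adjusted exact permutation p of 0.161, 0.108 and 0.209 and rho of 0.733, 0.783 and 0.683. Summed oligodendrocyte markers, genes of myelin such as Mbp, were at 879, 595 and 845 RPKM in sham, 517, 487 and 840 in ICH and 692, 760 and 476 in feb. They gave r of -0.800 with Cyr61 and -0.681 with Nov, with adjusted exact permutation p of 0.108 and 0.221 and rho of -0.750 and -0.617, and -0.848 and -0.634 for r with the group means subtracted. The part of these cell types in the Ctgf, Cyr61 and Nov values was not tested.

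**Figure D3:**
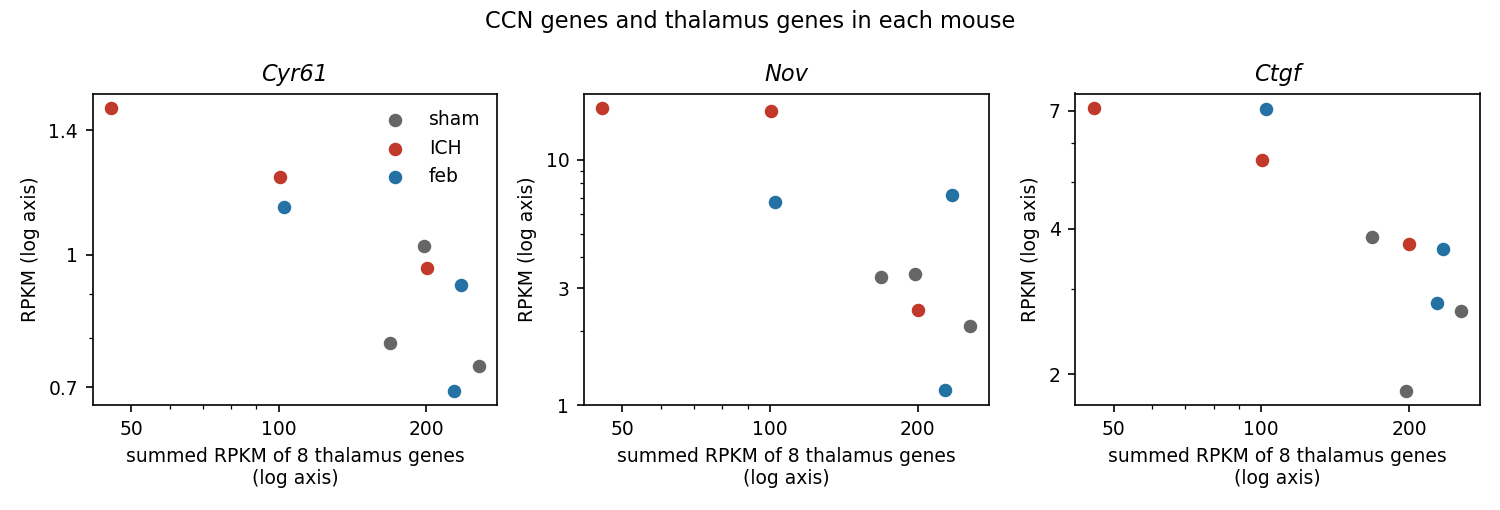
RPKM of Cyr61, Nov and Ctgf against the summed RPKM of 8 thalamus markers in each mouse, both on log axes, with sham in grey, ICH in red and feb in blue. The 3 mice with sums of 45.5 to 102 RPKM, ICH mice 1 and 2 and feb mouse 3, hold the highest levels of Cyr61 and Ctgf.

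Wisp2 correlated with the astrocyte sum at r of 0.949 (exact permutation p = 0.000587, adjusted to 0.0329) and rho of 0.850 (adjusted exact permutation p = 0.231), and r was 0.755 without ICH mouse 2. In that mouse 573 of the 1016 RPKM of the sum came from Gfap, the intermediate filament of reactive astrocytes, which was at 54.5 to 160 RPKM elsewhere. The other 6 astrocyte markers summed to 442 RPKM there against 393 to 462 in the other mice, but did not all move alike. Gja1 at 50.4 and Aldoc at 77.1 RPKM were the lowest of all 9 mice. Aldh1l1 at 22.3 RPKM was the highest of all 9, and Aqp4 at 48.2 RPKM was exceeded only in sham mouse 1, at 59.6. The high sum in ICH mouse 2 was thus mainly that of Gfap, while other markers of the list were high or low there. For Wisp1, given with no test, r was 0.65 with mural cells, 0.64 with meningeal and vascular fibroblasts, 0.62 with choroid plexus and 0.60 with cortical excitatory neurons. With the group means subtracted the mural value was 0.94 and the fibroblast value 0.77. The striatal medium spiny neuron value was then -0.83, larger in size than that of fibroblasts, against -0.07 before. Striatal sums were 112 to 661 RPKM in sham, 281 to 581 in ICH and 225 to 443 in feb. After dropping the 2 mice with the most extreme Wisp1 levels, r was 0.33 with mural cells and 0.57 with fibroblasts. It was 0.62 with choroid plexus, 0.52 with cortical excitatory neurons and -0.15 with striatal neurons. Mural sums overlapped between the groups, at 61.6 to 90.4 RPKM in sham, 64.3 to 97.2 in ICH and 47.8 to 81.0 in feb, and 0 of 8 mural markers were called in any comparison. Of the 8, 0 had values above 0 in feb against ICH or in feb against sham (medians -0.33 and -0.36). Among all genes, 52.2% and 41.2% were below 0 in these comparisons. At an unadjusted limma p under 0.05 there were 2 and 3 mural markers, against 11.1% and 8.54% of all genes in either direction. Fibroblast sums were 20.4 to 45.5, 22.2 to 45.9 and 16.5 to 24.4 RPKM. In feb against ICH 2 of 10 fibroblast markers were called lower, collagen Col3a1 and growth factor Igf2, as were 1.05% of all genes. In feb against sham 3 of 10 were called lower, Col3a1 and Igf2 among them, as were 0.613% of all genes. Values above 0 were held by 0 of 10 and 1 of 10 in these comparisons (medians -0.85 and -0.71). For feb against ICH the Col3a1 call was lost in 6 of 11 other settings and 4 of 6 fits with 1 mouse left out. The Igf2 call was lost there with a pseudocount of 1, without ICH mouse 1 and without feb mouse 1. The 3 calls in feb against sham were lost with pseudocount 1, and without sham mouse 1, sham mouse 3 or feb mouse 1. The part of these cell types in the Wisp1 values was not tested.

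Around the CCN proteins, 7 lists of pathway genes held 95 genes, of which 94 were tested (the YAP target Ankrd1 was below the filter). In ICH against sham 5 were called higher and 0 lower, against 1.46% and 1.07% of all genes tested. In feb against ICH 0 were called higher and 3 lower, against 1.38% and 1.05%. In feb against sham 1 was called higher and 0 lower, against 1.59% and 0.613%. None of these had an adjusted p under 0.05 by limma, which 0.0241%, 0.00689% and 0.00345% of all genes had in the 3 comparisons. Scaled to equal medians, which moved the median of all genes in ICH against sham from 0.08 to -0.03, the 5 became 2. At an unadjusted limma p under 0.05 in either direction, the background for the list counts given next was 12.3% of all genes in ICH against sham and 11.1% in feb against ICH. The lists had been drawn up with earlier results of these data known.

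The receptors and binding partners, integrins with Lrp1, Lrp6, Notch1 and Sdc4, had 0 of 12 called in either of the first 2 comparisons, and 1 and 4 of 12 at an unadjusted limma p under 0.05. Their median log2 difference was 0.13 in ICH against sham and -0.31 in feb against ICH, against 0.08 and -0.01 over all genes. Itgav, a subunit of the integrins that bind several CCN proteins, was at 5.60, 6.22 and 5.22 RPKM in sham, 7.47, 8.11 and 6.67 in ICH and 5.52, 4.80 and 5.42 in feb. Lrp1, the endocytic receptor of Ctgf, was abundant at 51.0 to 61.7 RPKM in all 9 mice.

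The Hippo core, the kinases and cofactors that govern YAP and TAZ, had 0 of 15 genes called, with medians of 0.24 and -0.14, and 2 and 4 of 15 at an unadjusted p under 0.05. YAP/TAZ-TEAD targets other than Ctgf and Cyr61 had 0 of 19 called in ICH against sham (median 0.17, and 4 of 19 at an unadjusted limma p under 0.05). In feb against ICH 1 of 19 was called lower (median -0.05). It was Ccdc80, a matrix protein of adipose and fibroblast cells, at 3.22, 5.48 and 2.08 RPKM in ICH and 1.02, 2.09 and 1.11 in feb, a log2 difference of -1.26 with an adjusted p of 0.312 by limma. The call was lost without ICH mouse 2 and with a pseudocount of 1. TGF-beta ligands, receptors and targets had 0 of 14 called, with medians of 0.31 and -0.40, where 14 of 14 values were below 0 in feb against ICH, as were 52.2% of all genes, and 4 and 3 of 14 had an unadjusted limma p under 0.05.

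The Wnt/beta-catenin target genes, among which Axin2 is the most general reporter, had 0 of 12 called in either comparison, with medians of -0.07 and -0.10, and 0 and 1 of 12 had an unadjusted limma p under 0.05. Axin2 was at 12, 10.6 and 10.8 RPKM in sham, 10.2, 9.22 and 11 in ICH and 12.7, 10.6 and 8.98 in feb. These levels overlapped in all groups, in contrast to Wisp1. The Wnt ligand Wnt7b was at 1.96, 2.33 and 2.30 RPKM in sham, 4.04, 8.50 and 2.46 in ICH and 1.98, 2.41 and 2.66 in feb. Every ICH mouse lay above every sham mouse, as for 13.2% of all genes. The ICH and feb mice overlapped, since ICH mouse 3 lay below feb mouse 3. Wnt7b was not called in ICH against sham (0.97, adjusted p = 0.382 by limma). The study, which used edgeR, has Wnt7b among its genes differing in both ICH against sham and feb against ICH. It also reports protein staining of Wnt7b as higher in ICH than in sham and lower with febuxostat. The secreted Wnt antagonist Frzb was called higher in ICH against sham, at 1.59 with an adjusted p of 0.284 by limma, a call lost with a pseudocount of 1.

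Serum-response and immediate early genes, to which Cyr61 belongs by its quick induction, were the list with the most calls, 4 of 12 higher in ICH against sham with a median of 0.85. They were the synaptic gene Arc at 1.11 and the transcription factors Egr1 at 1.02, Nr4a1 at 1.02 and Egr2 at 1.0, with adjusted limma p of 0.277, 0.334, 0.345 and 0.393. Arc was at 20.3, 19.6 and 13.8 RPKM in sham, 36.5, 29.2 and 52.7 in ICH and 17.0, 17.4 and 15.9 in feb. Every ICH mouse lay above all other mice for Arc, as for Wisp1, but the highest was ICH mouse 3, the mouse with the lowest Wisp1, Ctgf, Cyr61 and Nov of its group. In feb against ICH Arc was called lower at -1.19 and Nr4a1 at -1.01, with adjusted limma p of 0.197 and 0.309, and without ICH mouse 3 both calls were lost. The calls of Egr1, Nr4a1 and Egr2 in ICH against sham were lost when the samples were scaled to equal medians, while that of Arc was kept. Without sham mouse 3 or without ICH mouse 3 all 4 were lost.

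Among other matricellular proteins, 1 of 12 was called. Thbs4, a thrombospondin of astrocytes and injured tissue, was at 2.07, 0.744 and 1.60 RPKM in sham, 2.57, 4.69 and 4.07 in ICH and 5.09, 4.16 and 2.45 in feb. It was higher by 1.37 in ICH and by 1.39 in feb than in sham, with adjusted limma p of 0.345 and 0.565, and did not differ between feb and ICH beyond its error (0.03, 95% interval -0.89 to 0.94). Both calls were lost without sham mouse 2 and with a pseudocount of 1. The feb mice were thus high for Thbs4 and low for Wisp1.

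**Figure D4:**
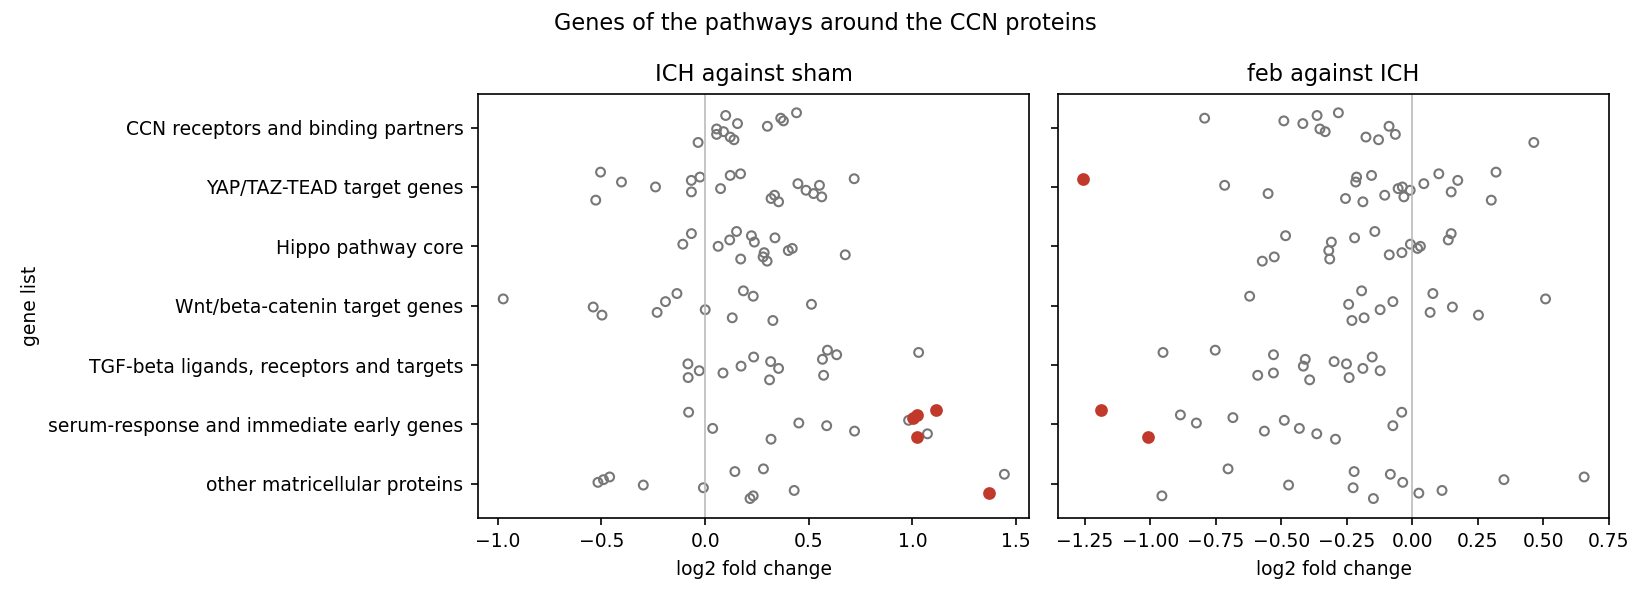
Log2 fold change of the tested genes of 7 pathway lists in ICH against sham and feb against ICH, on the log2(RPKM + 0.1) scale, with 1 point a gene and called genes in red. The 5 red points on the left are 4 immediate early genes between 1.0 and 1.11 and Thbs4 at 1.37, and the 3 on the right are Ccdc80, Arc and Nr4a1.

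The genes whose pattern over the 9 mice was most like that of each member were taken by Pearson r of log2 levels among 22910 genes with enough reads, as a description with no test. For Wisp1 these were Zfp568, a zinc-finger repressor, at r of 0.970, the synaptic adhesion gene Igsf21 at 0.959 and Fam81a at 0.947. Igsf21 was at 9.02, 7.54 and 7.95 RPKM in sham, 15.1, 12 and 10.8 in ICH and 6.87, 10.5 and 6.02 in feb, thus ordered like Wisp1 within the ICH group. Over all genes compared, 0.148% reached r of 0.9 with Wisp1.

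For Cyr61 they were the adhesion receptor Cxadr at 0.982, the phosphodiesterase Pde1a at 0.964 and Arhgef39 at 0.958, and for Nov the receptor phosphatase Ptprg at 0.940, the proteoglycan enzyme Xylt1 at 0.937 and Ddx31 at 0.927. Ctgf was most like 8030453O22Rik at 0.951, Tnks1bp1 at 0.948 and the calcium channel Ryr2 at 0.941. Wisp2 was most like Gpnmb, a glycoprotein of phagocytes, at 0.980, Ggta1 at 0.978 and Hpgd at 0.971, and without ICH mouse 2 these fell to 0.918, 0.90 and 0.908. No gene was among the nearest 3 of more than 1 member.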

How the data were processed

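Brain RNA of 9 mice was sequenced by the authors after rRNA depletion with a stranded kit and molecular identifiers. Per the study's methods and the submitters' processing notes, reads were trimmed with Trimmomatic 0.36, collapsed by identifier, aligned to GRCm38 and counted with featureCounts (Subread 1.5.1), and differences were tested by the authors with edgeR 3.12.1. The authors deposited RPKM values, not counts. Genes with at least 0.1 RPKM in at least 3 of 9 mice (29025 of 38621, 4 of the 5 members) were fitted with limma 3.58.1 (R 4.3.3, trended eBayes) on log2(RPKM + 0.1), with group as the only term and all 9 mice. This understates changes of low genes. Called means an unadjusted p under 0.05 and a fold change over 2, the criteria of the study. Adjusted p-values are Benjamini-Hochberg over all genes tested. Correlations used exact permutations. Replicates are taken as separate mice, which the labels do not state but the study does, giving 3 mice a group for its differentially expressed genes. The p-values measure only the spread between samples. Intervals on reads cover counting error only. The members and gene lists were chosen with earlier results of these data known. Named genes were the members, the 3 genes most correlated with each (at least 10 reads in at least 3 mice), up to 4 called genes per pathway list, Wnt7b, Frzb and markers of the list most correlated with a member. Itgav, Lrp1, Axin2, Gm15270, Slc17a7, Emx1, Neurod6, Tbr1, Mbp, Gfap, Gja1, Aldoc, Aldh1l1, Aqp4, Col3a1 and Igf2 fell outside that rule. They were named after their values were seen. The fit was tested on simulated data. Promoter sequence came from RefSeq (1 of 5 members matched), coding sequences from GENCODE M21, and gene positions were those deposited with the RPKM values.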

Additional observations from a re-analysis of the deposited data

How the results depend on the processing

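Under 11 other settings (pseudocounts 1 and 0.01, no filter, a filter of 1 RPKM, equal medians, quantile normalization, only the groups compared, untrended eBayes, the replicate block, and voom with total or median-of-ratios library sizes) the members called stayed at 0 in all 3 comparisons. With 1 mouse left out they ranged from 0 to 2 in ICH against sham, 0 to 1 in feb against ICH and 0 to 0 in feb against sham, the highest without ICH mouse 3 in both. Wisp1, removed by the filter of 1 RPKM, ranged from 0.31 to 1.75 and from -2.24 to -0.34 in the first 2 comparisons over the other 10 settings. Pathway genes called in ICH against sham (5) became 1 with pseudocount 1, 2 with equal medians and 2 with quantile normalization. They became 8 with voom on total library sizes but stayed at 5 with voom on median-of-ratios library sizes. With 1 mouse left out they ranged from 1 to 6. In feb against ICH (3) they became 1 with pseudocount 1, and in feb against sham (1) they became 0 with pseudocount 1 and 2 with only the 2 groups compared, and 0 to 2 with 1 mouse left out. The cause of these shifts was not tested. In feb against sham Cyr61 (0.09) reversed to -0.0243 with equal medians, -0.0637 with quantile normalization and -0.0672 without feb mouse 3 (range with 1 mouse left out -0.0672 to 0.255), and Nov (0.41) to -0.0283 without feb mouse 2 (range -0.0283 to 1.24). Genes called over all genes fell from 735, 706 and 639 to 158, 128 and 91 with pseudocount 1 and to 346, 287 and 263 with the filter of 1 RPKM, and were 1299 in ICH against sham and 1150 in feb against sham without sham mouse 2 and 1030 in feb against sham without feb mouse 2. The split of calls in ICH against sham was 423 higher and 312 lower, 296 and 443 with equal medians and 317 and 406 with quantile normalization. Same-numbered mice did not deviate together more than others (correlations -0.127 to 0.0194 over 9 pairs, against -0.121 to 0.166 over 18 pairs of different number). The values thus gave no sign of pairing by number, but they cannot show whether such mice were handled together. With the replicate block 717, 684 and 615 genes and 0 members were called, and Ctgf in ICH against sham had an unadjusted limma p of 0.0681. Depth limits Wisp1 and Wisp2, with at most 64 and 19 reads a mouse.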
